A study of Homo sapiens with 4 samples.

Results

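Wild type HCT116 cells, a human colorectal carcinoma line, gave 1 library of RNA from heavy polysomes and 1 from light polysomes, and these are 2 of the 4 libraries of the series. Both were chosen by their labels: genotype wild type, with 10 or more ribosomes per mRNA in the heavy pool and 9 or fewer in the light pool. The labels do not say where the light pool began, so whether single ribosomes were part of it is not known. The other pair of libraries carries the same fraction names and the label of a Dicer1 knockout of the same line, and it is set beside the wild type only where stated. The labels do not say how the knockout was made or whether either culture is a clone. With 1 library a side there is no replicate spread and no test. Every ratio below therefore compares these 2 libraries, and its 95% interval covers counting error only.

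A polysome is an mRNA with several ribosomes on it, and a sucrose gradient sorts polysomes by how many ribosomes they carry. A longer coding sequence has room for more ribosomes, while slow initiation leaves an mRNA with few. Short reading frames in the 5′ leader can hold back ribosomes before they reach the main start codon, and ribosomal protein and elongation factor mRNAs carry a 5′ terminal oligopyrimidine (TOP) motif through which mTOR signalling sets their translation.

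The heavy library held 20933675 counts and the light library 19727010, so a count of 0 allows up to 0.159 and 0.134 CPM (the count scaled to equal library size, here with the scaling described below), at 3 counts. Ribosomal RNA (row RNA45S5) took 2.61% of the counts in heavy polysomes (exact 95% limits 2.61 to 2.62%) and 3.59% in light polysomes (3.58 to 3.59%). Epithelial markers were present in both, EPCAM with 16332 and 12586 counts, CDH1 with 2913 and 719 and CDX2, an intestinal transcription factor, with 235 and 579, while VIL1, LGALS4, CEACAM5 and CEACAM6 had at most 1 count in either. Of 20 markers of stroma, endothelium and blood, COL1A1, ACTA2 and CD68 had over 200 counts in both wild type libraries and no other had more than 10. DICER1 mRNA, which encodes the enzyme that cuts microRNA precursors, had 500 counts in heavy and 547 in light polysomes of the wild type. The libraries labelled knockout held 925 and 889. In scaled CPM these were 51.9 in heavy and 48.3 in light polysomes, against 26.5 and 24.4 in the wild type. The mRNA's share of each pool was thus higher under that label, which is kept here as "labelled knockout". Its level in whole cells was not measured.

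Of 26364 gene symbols, 11101 had at least 50 counts in both wild type libraries and were measured. A further 213 reached 50 counts in heavy polysomes only, 692 in light polysomes only and 14358 in neither, 8834 of which had no count in either library. The log2 heavy to light ratio of CPM scaled by TMM (trimmed mean of M values, a scaling to a common centre) had a median of 0.07 over the measured genes, quartiles of -0.76 and 1.07 and an SD of 1.17. Genes that differed at least 2-fold with a counting interval off 0 are called heavy-enriched or light-enriched below. These were 2962 heavy-enriched genes, 26.7% of those measured, and 1961 light-enriched genes, 17.7%. Heavy-enriched genes made up 60.2% of both kinds under TMM and 40.5% when only library totals were used, so the split follows the scaling. A ratio compares shares of 2 libraries, and how much RNA each pool held in all is not known.

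**Figure D1:**
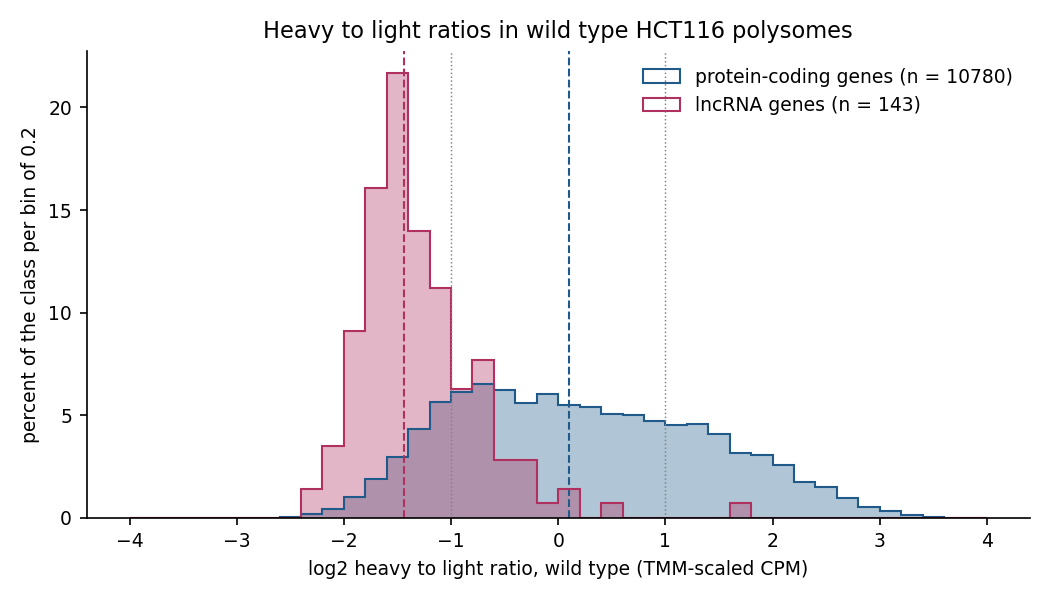
Percent of genes per bin of 0.2 (vertical axis) against the wild type log2 heavy to light ratio (horizontal axis), for 10780 protein-coding genes and 143 lncRNA genes. Dashed lines are the class medians (0.11 and -1.43), dotted lines mark a 2-fold difference, and the lncRNA genes pile up on the light side.

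The mRNAs most concentrated in heavy polysomes encoded housekeeping proteins, and 9 of the highest ratios among protein-coding genes averaging 20 CPM or more are given. USP5, which takes apart free ubiquitin chains, had 3726 counts in heavy and 416 in light polysomes, or 197 and 18.5 scaled CPM, a log2 ratio of 3.41 (interval 3.27 to 3.56) and a fold of 10.6. USP5 occupies chromosome 12, 6852148 to 6866632 (GRCh38, plus strand), and encodes 858 residues. AARS, the alanyl-tRNA synthetase, had 17406 and 1949 (3.41), and FARSA, a subunit of phenylalanyl-tRNA synthetase, had 5775 and 700 (3.29). DCTN1, the largest subunit of the dynein activator dynactin, had 4959 and 571 (3.37). All 4 were heavy-enriched in the labelled knockout gradient too, from 1.84 (FARSA) to 2.57 (DCTN1). LMNA, which encodes lamins A and C of the nuclear envelope, had 24819 and 2868 counts (3.36). STIP1, a cochaperone that links HSP70 and HSP90, had 14254 and 1651 (3.36), and TCOF1, a nucleolar factor of ribosomal RNA synthesis, had 4148 and 490 (3.33). UBA1, the main ubiquitin-activating enzyme, had 15815 and 1901 (3.31), and MTHFD1, an enzyme of folate metabolism, had 7255 and 885 (3.28). The proteins of these 9 genes ran from 508 residues (FARSA) to 1489 (TCOF1), against a median of 472 for all measured protein-coding genes. The annotated 5′ leader held no ATG in 8 of them, and 2 in DCTN1. Among all measured protein-coding genes, 39.6% have at least 1, so most have none as well.

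At the other end stood mRNAs of very small proteins. TMSB15A, TMSB4X and TMSB10 encode beta-thymosins, peptides that bind actin monomers, and the 3 coding sequences are shown with those of OST4, ATP5E and USMG5 because their shortness is the feature that these light-polysome mRNAs share. OST4 encodes a subunit of the oligosaccharyltransferase, and ATP5E and USMG5 encode small subunits of ATP synthase. The sequences are the annotated reference coding sequences of GENCODE release 44 (GRCh38), 5′ to 3′, with the start and stop codons in capitals.
OST4: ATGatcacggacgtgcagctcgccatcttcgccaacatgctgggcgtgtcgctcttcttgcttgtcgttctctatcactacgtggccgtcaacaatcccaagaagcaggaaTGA
TMSB4X: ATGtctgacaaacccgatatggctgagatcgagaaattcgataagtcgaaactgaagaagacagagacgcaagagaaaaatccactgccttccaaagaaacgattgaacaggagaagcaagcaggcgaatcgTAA
TMSB10: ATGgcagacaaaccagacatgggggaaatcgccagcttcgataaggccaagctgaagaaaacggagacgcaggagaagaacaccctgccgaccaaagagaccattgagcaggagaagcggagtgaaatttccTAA
TMSB15A: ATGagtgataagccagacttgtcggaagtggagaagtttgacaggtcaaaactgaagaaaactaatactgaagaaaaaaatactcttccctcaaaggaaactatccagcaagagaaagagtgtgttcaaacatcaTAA
ATP5E: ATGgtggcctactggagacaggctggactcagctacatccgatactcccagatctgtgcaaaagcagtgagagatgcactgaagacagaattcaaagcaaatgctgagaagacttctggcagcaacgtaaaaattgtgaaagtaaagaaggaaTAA
USMG5: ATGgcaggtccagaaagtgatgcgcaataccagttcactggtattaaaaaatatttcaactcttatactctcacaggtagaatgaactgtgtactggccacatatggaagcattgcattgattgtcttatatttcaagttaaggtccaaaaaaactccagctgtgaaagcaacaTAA

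These reading frames run from 114 nucleotides (OST4) to 177 (USMG5), stop codon included, and those of TMSB4X and TMSB10 carry the same base at 98 of 135 positions (72.6%). OST4 is found on chromosome 2 (27070472 to 27071654, minus strand), as is TMSB10 (84905656 to 84906671, plus strand). TMSB4X (12975110 to 12977227, plus strand) and TMSB15A (102513682 to 102516739, minus strand) lie on chromosome X. ATP5E is on chromosome 20 (59025475 to 59032345) and USMG5 on chromosome 10 (103389041 to 103396492), both on the minus strand. All of these positions are gene bounds in GRCh38, while the counts were made on hg19.

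TMSB15A, of 45 residues, was the lowest among protein-coding genes averaging 20 CPM or more. It had 112 counts in heavy and 766 in light polysomes, or 5.93 and 34.2 scaled CPM, a log2 ratio of -2.52 (interval -2.82 to -2.24), 5.75-fold higher in light polysomes. TMSB4X had 206 and 1258 counts (-2.36) and TMSB10 19718 and 81132 (-1.79), so all 3 thymosin mRNAs were light-enriched at very different count depths. USMG5 had 757 and 4788 counts (-2.41), ATP5E 163 and 925 (-2.26) and OST4 362 and 1899 (-2.14). All 6 were light-enriched in the labelled knockout gradient too, with ratios of -2.13, -2.08, -1.89, -2.54, -2.06 and -2.03 in the order of this paragraph. Opposite-strand genes cover 25% of the exon length of OST4 and 23.2% of that of ATP5E, and reads of such pairs cannot be told apart because the strand setting is not given.

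The other genes among the lowest 10 were TMEM14B (114 residues, -2.50), TMEM167A (72 residues, -2.30), SNRPG (76 residues, -2.30), AP1AR (302 residues, -2.29), SCOC (82 residues, -2.29) and BBIP1 (92 residues, -2.28). SNRPG is a ring protein of the spliceosomal snRNPs, SCOC a short coiled-coil protein and BBIP1 a subunit of the BBSome, a coat of ciliary membrane traffic. AP1AR, which binds the AP-1 clathrin adaptor, is the exception in size: its mRNA had 459 and 2677 counts, and its leader holds 3 ATG triplets.

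Long noncoding RNAs lay mostly on the light side. Of 143 measured lncRNA genes, 110 were light-enriched and 1 was heavy-enriched, with a median of -1.43. EBLN3 had 496 counts in heavy and 2798 in light polysomes (-2.25), LINC01184 had 87 and 447 (-2.11) and LOXL1-AS1 had 59 and 288 (-2.04). The 1 heavy-enriched lncRNA, PTOV1-AS1, had 378 and 148 counts (1.60), and 41.9% of its exon length overlaps a gene on the opposite strand, so its reads may be those of that gene. Host transcripts of small nucleolar RNAs, which are spliced and largely degraded after their intronic RNAs are released, had a median of -1.56, and 16 of 17 measured were light-enriched. SNHG1 had 1782 and 7790 counts (-1.88) and SNHG5 198 and 872 (-1.89). The member that was not, TAF1D, encodes a protein of the RNA polymerase I machinery and stood at -0.31.

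Pseudogenes were spread over both sides, with 13 of 67 heavy-enriched, 26 light-enriched and a median of -0.58. The highest ratios among genes with no protein all belonged to pseudogenes, led by PDIA3P1 (5507 and 844 counts, 2.96), TOP1P1 (488 and 93, 2.64) and ANXA2P1 (775 and 156, 2.56). HSP90B2P (2.53), ANXA2P2 (2.47) and ANXA2P3 (2.33) followed. Their parent genes stood at 2.93 (PDIA3), 2.64 (TOP1), 2.46 (ANXA2) and 2.49 (HSP90B1). Reads of near-identical copies can be assigned to either, so these pseudogene values are uncertain. The lowest with no protein were ZNF271P (145 and 922 counts, -2.42) and OTUD6B-AS1 (485 and 2791, -2.28).

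Protein length ordered the ratios over most of its range. Among the 10780 protein-coding genes with a complete annotated coding sequence, the 77 with at most 75 residues had a median of -1.77. Of these 94.8% were light-enriched and none was heavy-enriched. The median was -1.23 for 606 genes of 76 to 150 residues, -0.63 for 1418 of 151 to 250 and -0.25 for 1526 of 251 to 350. It was 0.14 for 2151 genes of 351 to 500 residues, 0.47 for 1932 of 501 to 700 and 0.71 for 1518 of 701 to 1000. Beyond that it still increased, in smaller steps, to 0.92 for 950 genes up to 1500 residues, 1.02 for 452 up to 2500 and 1.17 for 150 longer ones. Each class median was above the one before it, and most of the change fell below 500 residues.

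The spread inside a class depended on length as well. Among genes of 501 to 700 residues 35.2% were heavy-enriched and 9.11% light-enriched. Among the 77 shortest the quartiles were -2.01 and -1.58. Heavy enrichment was thus almost absent among the shortest frames, while some light-enriched genes occurred in every length class. Proteins over 1000 residues had a median of 0.98 (763 of 1552 heavy-enriched, 47 light-enriched) against -1.29 for proteins of at most 150 residues (1 of 683 and 497), a difference of 2.27. That difference was 1.88 when genes with few counts were kept with a prior count of 2. The 1 heavy-enriched short frame was ADM2, a secreted peptide of the calcitonin family with 148 residues, with 418 and 207 counts (1.26, interval 1.02 to 1.51).

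**Figure D2:**
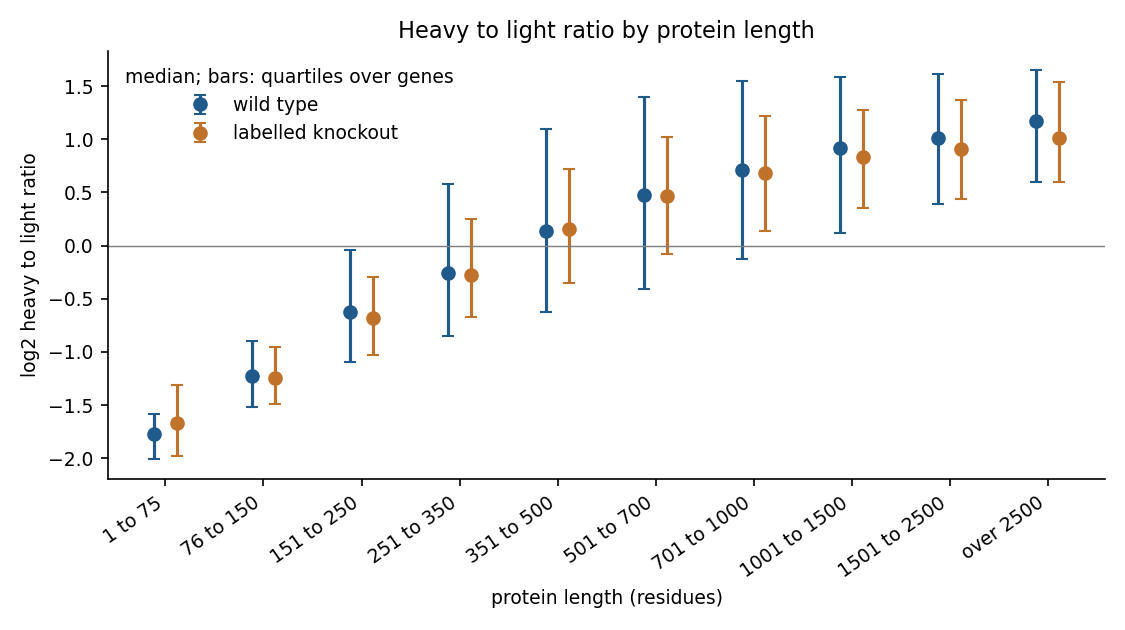
Median log2 heavy to light ratio (vertical axis; bars are quartiles over genes, not errors) by protein length in residues (horizontal axis) for the wild type and the labelled knockout gradient. Wild type medians climb from -1.77 to 1.17 and labelled knockout ones from -1.67 to 1.01, and the wild type bars are wider in the middle classes.

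ADM2 has a mean CPM of 15.7. Among short frames at 20 CPM or more, the highest ratios were only just above 0. SSBP1, the single-stranded DNA-binding protein of mitochondria (148 residues), had 5813 and 5055 counts and a log2 ratio of 0.45 (interval 0.40 to 0.51). CST3, the secreted protease inhibitor cystatin C, had 4832 and 4244 (0.44). MRPL27 of the mitochondrial ribosome had 1595 and 1455 (0.38), and NDUFA12 of respiratory complex I had 2189 and 2008 (0.37). MAGOH and MAGOHB, paralogous cores of the exon junction complex, stood at 0.19 (0.10 to 0.28) and 0.09 (-0.05 to 0.24), C11orf1 at 0.07 and PFN1, the actin-binding profilin, at 0.01. Under library totals MAGOH had a ratio of -0.15, and MAGOHB, C11orf1 and PFN1 fell below 0 as well. All 8 were higher in light polysomes in the labelled knockout gradient, from -0.32 (SSBP1) to -0.85 (PFN1).

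Long frames at the light end were few, and the 8 lowest at 20 CPM or more are given. PCDH7, a protocadherin of 1255 residues, had 831 counts in heavy and 4593 in light polysomes, a ratio of -2.22 (interval -2.33 to -2.11), and its leader holds 8 ATG triplets. WDR72 stood at -1.99 (196 and 928 counts), the scavenger receptor CD163L1 at -1.84 (189 and 803) and PDZD8, an endoplasmic reticulum tether, at -1.68 (852 and 3238). ADPRHL1 (-1.49), NEBL (-1.47), OBSL1 (-1.34) and MUC3A, a membrane mucin of 3323 residues (-1.24), completed them. PCDH7, PDZD8 and NEBL have ATG triplets in their annotated leaders and the other 5 have none. The length used is that of 1 canonical annotated transcript per gene, and which isoform these cells express was not tested. NACA, a chaperone of nascent chains, shows the limit: its canonical entry has 2078 residues, that of a long isoform, and its ratio was -1.12.

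ATG triplets in the annotated 5′ leader went with lighter polysomes at nearly every protein length. Of the protein-coding genes, 6512 have none, and 35.6% of them were heavy-enriched and 12.1% light-enriched. With 1 upstream ATG (2088 genes) the shares were 18.8% and 19.3%, with 2 (967 genes) 12.0% and 26.1%, with 3 to 4 (739 genes) 10.4% and 25.4%, and with 5 or more (474 genes) 7.59% and 32.3%. The order of the light shares between 2 and 3 to 4 is the only step that runs the other way. Every ATG in the leader was counted, in any frame and context, and no use of it as a start was measured.

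Genes with upstream ATG triplets encode longer proteins on the whole, which by itself goes with heavier polysomes: 14.3% of the shortest class and 63.3% of the longest have at least 1. At 501 to 700 residues the median was 1.09 with none, 0.03 with 1, -0.50 with 2, -0.60 with 3 to 4 and -0.69 with 5 or more. In the class of 1501 to 2500 residues it was 1.47 with none and 0.43 with 5 or more. Relative to the median of the gene's own length class, genes with none stood at 0.40 and those with 5 or more at -0.96. In the labelled knockout gradient the same medians were 0.19 and -0.51. Genes with none and genes with at least 2 differed by 1.17 on this scale in the wild type. The comparison was added after the data were seen, and it gave 1.09 in leaders over 100 and up to 300 nucleotides, 1.19 where under 20% of exon length is shared with other genes and 1.27 at a mean CPM of at least 20.

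**Figure D3:**
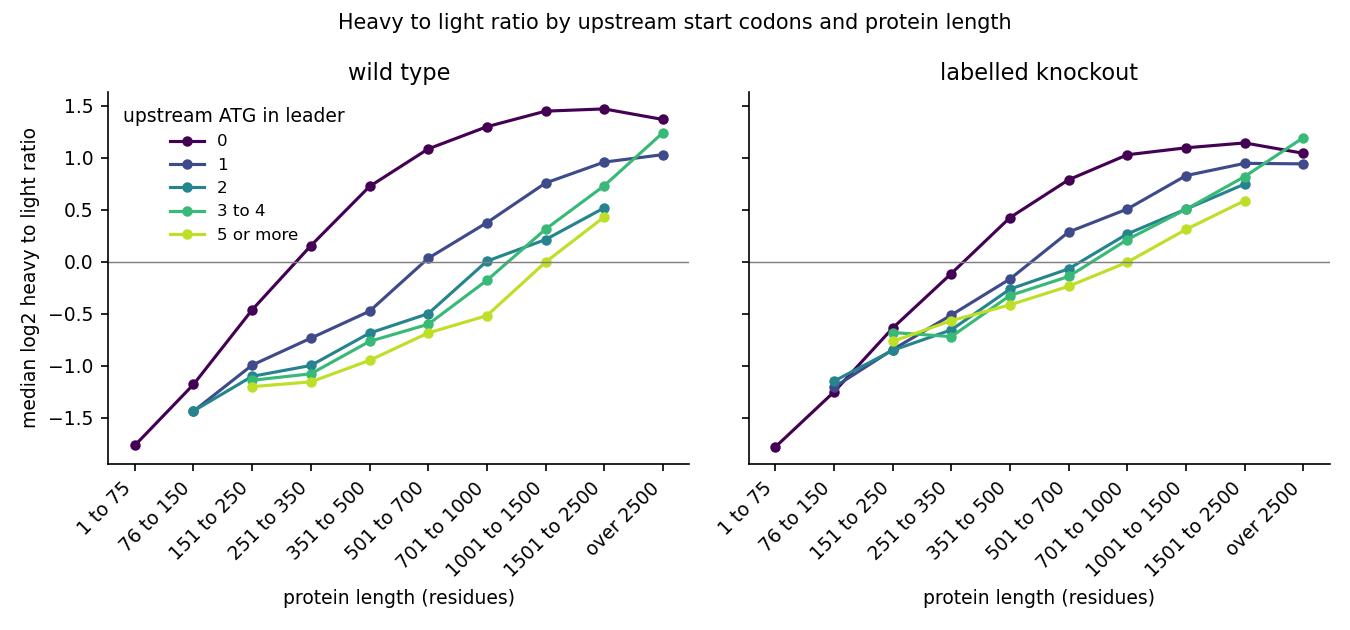
Median log2 heavy to light ratio (vertical axis) by protein length in residues (horizontal axis), 1 line per number of ATG triplets in the annotated 5′ leader, for the wild type (left) and the labelled knockout (right). Classes under 20 genes are not drawn. At 501 to 700 residues the wild type lines lie between 1.09 and -0.69, and the lines of the labelled knockout lie closer together.

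Leader length alone moved the ratio less. Among genes with no upstream ATG, the median relative to the length class went from 0.55 in leaders of up to 50 nucleotides to 0.02 in leaders over 300 and up to 500. In the 61 such genes with leaders over 500 nucleotides it was 0.14. With at least 2 upstream ATG triplets it stayed between -0.63 and -0.80 in every leader length from 50 nucleotides up. In 3′ UTRs over 3000 nucleotides it was 0.26 with no upstream ATG and -0.91 with at least 2, and in 3′ UTRs up to 300 it was 0.48 and -0.47. Genes with a mean CPM above 100 stood at 0.45, genes between 5 and 10 CPM at -0.33 and genes up to 5 CPM at -0.27. This mean comes from the same 2 libraries as the ratio, so it is not an independent measure of abundance. The minimum of 50 counts in both also limits the ratios that can occur at low CPM. Within abundance classes, the medians were 0.66 and -0.61 above 100 CPM, and 0.07 and -0.72 between 5 and 10 CPM, for none and at least 2.

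Across 10569 protein-coding genes measured in both gradients, Spearman's rho with the ratio was 0.50 for protein length, -0.29 for the number of upstream ATG triplets and -0.21 for leader length in the wild type. It was -0.08 for 3′ UTR length, -0.01 for the GC share of the last base of codons and 0.09 for mean CPM. In the labelled knockout the values were 0.64, -0.12, -0.04, 0.02, 0.04 and -0.01. These are descriptions across genes that share the same 2 libraries, and genes are not replicates.

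Gene groups were described by their counts and medians, to be read against 26.7% heavy-enriched, 17.7% light-enriched and a median of 0.07 among all measured genes. Among the machines of RNA processing, large and small subunits parted. The large spliceosome proteins had the highest median of all 61 lists, 2.23, with 24 of 32 heavy-enriched and none light-enriched. PRPF8, the scaffold of the spliceosome's catalytic core, had 13686 and 1823 counts (3.16), XAB2 had 4338 and 581 (3.15), and PRPF39 stood lowest at 0.01. The Sm and LSm list holds proteins that form rings on U snRNAs and others, such as SNRNP70 and SNRPA, that do not. It had a median of -1.27 with 14 of 23 light-enriched. The 4 heavy-enriched members of that list were SNRNP70 (437 residues, 2.14), SNRPB (1.99), SNRPA and SNRPB2 (1.14), whereas LSM3 (102 residues) stood at -1.73.

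Heterogeneous nuclear RNPs, abundant pre-mRNA binding proteins, had a median of 1.05 with 12 of 22 heavy-enriched, led by HNRNPM and HNRNPU (2.91 each). SR splicing factors had 0.77, with 4 of 13 heavy-enriched, and ran from SRSF9 at -0.99 to SRSF6 at 1.80. RNA polymerase II and its general factors had a median of -0.61, with 6 of 32 heavy-enriched and 11 light-enriched. POLR2A, the catalytic subunit of 1970 residues, had 6498 and 915 counts (3.08), and POLR2K, a subunit of 58 residues, had 1192 and 5069 (-1.84). Thus subunits of 1 enzyme covered nearly the full range. Mediator, which links activators to polymerase II, had 11 of 29 heavy-enriched and 4 light-enriched, from MED30 (-1.91) to MED25 (2.59). Chromatin remodellers had a median of 1.42 with 20 of 26 heavy-enriched and none light-enriched, SMARCA4, a motor of the BAF complex, at 2.85. Histone methyltransferases and acetyltransferases had 0.71 with 10 of 30 heavy-enriched.

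The translation apparatus was divided in the same way. Cytosolic aminoacyl-tRNA synthetases had a median of 2.19 with 19 of 20 heavy-enriched, QARS being the exception at 0.81. Nucleolar ribosome assembly factors had 1.89 with 36 of 45 heavy-enriched. NOC2L had 4215 and 518 counts (3.27) and GNL2, a nucleolar GTPase, had 5378 and 915 (2.80), while NOP10 (64 residues, -1.86) and NHP2 (153 residues, -1.41), small proteins of H/ACA particles, were light-enriched. Cytosolic ribosomal proteins had a median of -0.75, with none of 71 heavy-enriched and 26 light-enriched. RPL41, of 25 residues, had 64 and 273 counts (-1.84) and RPS21 had 1815 and 7636 (-1.82), whereas RPL15 had 14099 and 12401 (0.43) and RPL14 had 19755 and 18087 (0.38). Relative to their length classes the ribosomal proteins stood at 0.14.

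Elongation factors and other TOP mRNAs had a median of 0.28 with 2 of 20 heavy-enriched, which became -0.06 under library totals. NPM1, the nucleolar chaperone nucleophosmin, stood at 1.36 and GNB2L1, the ribosome-bound scaffold RACK1, at 1.01. Subunits of eIF3, the initiation factor that bridges mRNA and the small ribosomal subunit, had 4 of 12 heavy-enriched, among them EIF3B (2.25), EIF3I (2.05) and EIF3A (1.77), with EIF3J at -0.73. Mitochondrial ribosomal proteins had a median of 0.22 (-0.11 under library totals) with 18 of 75 heavy-enriched and 14 light-enriched. Within that list MRPL39 (338 residues) stood at 2.42 and MRPL33 (65 residues) at -1.87. Mitochondrial synthetases had 1.08 with 9 of 17 heavy-enriched, from NARS2 (-0.63) to PARS2 (2.12).

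Protein folding and turnover showed contrasts in plain ratio between partner complexes, whose proteins differ in length. TRiC, the cytosolic chaperonin of actin and tubulin, had 7 of 8 subunits heavy-enriched and a median of 2.13. CCT5 had 23265 and 3602 counts (2.94) and CCT7 had 35455 and 5941 (2.83), but TCP1, the alpha subunit with a protein of like length (556 residues), had 12364 and 13672 (0.10, or -0.23 under library totals). An opposite-strand gene covers 31% of the exon length of CCT5. Prefoldin, which hands substrates to TRiC, had 3 of 6 subunits light-enriched and a median of -0.75. In the proteasome, the regulatory subunits had a median of 1.72, with 15 of 18 heavy-enriched, and the core subunits 0.81, with 6 of 16. PSMD1, the largest regulatory subunit, stood at 3.08, and SHFM1, of 70 residues, at -2.11. Core subunits ran from PSMB2 and PSMB10 (-0.76 each) to PSMB7 (1.51). Median lengths were 542 residues for TRiC and 144 for prefoldin, and 406.5 for the regulatory and 247 for the core subunits. Relative to their length classes TRiC stood at 1.66 and prefoldin at 0.15, and the regulatory subunits at 1.59 and the core at 1.28.

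Ubiquitin-conjugating E2 enzymes had none of 29 heavy-enriched and 11 light-enriched (median -0.78), UBE2K being lowest at -1.66. USP deubiquitinases had 13 of 37 heavy-enriched and 5 light-enriched. USP11 (3.05) joined USP5 at the top, and USP46 (-1.78), USP12 (-1.73), USP1 (-1.17), USP21 (-1.12) and USP31 (-1.05) were light-enriched. All 5 have at least 1 upstream ATG, as do 22 of all 37 members. Chaperones and folding enzymes of the endoplasmic reticulum had 11 of 20 heavy-enriched (median 1.36). PDIA3, a disulphide isomerase, had 18364 and 2868 counts (2.93), and SDF2L1 was the only light-enriched member (-1.15).

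**Figure D4:**
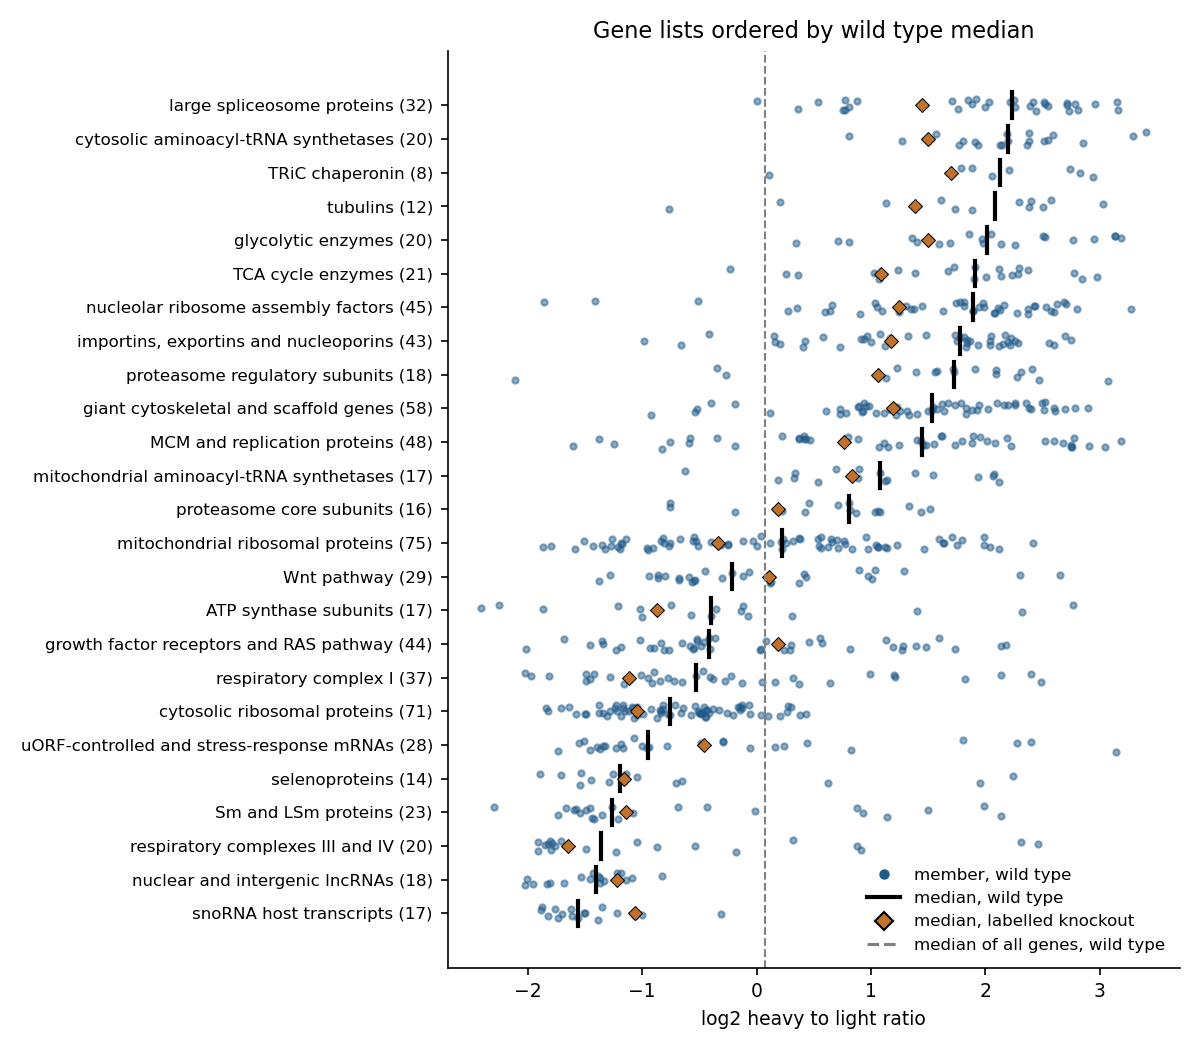
Log2 heavy to light ratio (horizontal axis) of each measured member of 25 gene lists (rows; number of members in brackets), with the wild type median (black bar), the median in the labelled knockout gradient (orange diamond) and the median of all genes (dashed line, 0.07). Large spliceosome proteins lead at 2.23, and snoRNA host transcripts are lowest at -1.56.

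Energy metabolism held both extremes. Glycolytic enzymes had a median of 2.01 with 17 of 20 heavy-enriched and none light-enriched. PKM, pyruvate kinase, had 98768 counts in heavy and 12868 in light polysomes (3.19) and ENO1, enolase, had 144438 and 19554 (3.13). TPI1, triosephosphate isomerase of 249 residues, stood at 0.71. TCA cycle enzymes had 1.91 with 18 of 21 heavy-enriched, SDHA (2.97) and ACO1 (2.84) being highest, while SDHC (0.26, or -0.075 under library totals) and SDHD (-0.24), the small membrane anchors of succinate dehydrogenase, were not enriched in either pool. Exons of SDHA share 22% of their length with another gene on the same strand.

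Respiratory complex I, the NADH dehydrogenase, had 6 of 37 subunits heavy-enriched and 11 light-enriched, with a median of -0.53. NDUFS1, the iron-sulphur subunit of 727 residues, had 2543 and 541 counts (2.48), and NDUFB1, of 58 residues, had 194 and 940 (-2.03). Spearman's rho between ratio and length across these 37 mRNAs was 0.91. ATP synthase had 3 of 17 heavy-enriched, the F1 subunits ATP5B (54834 and 9559 counts, 2.77), ATP5A1 (2.32) and ATP5C1 (1.40), 5 light-enriched and a rho of 0.92. Complexes III and IV had a median of -1.36 with 12 of 20 light-enriched. Their only heavy-enriched members were UQCRC1 (2.46) and UQCRC2 (2.31), the core proteins of complex III.

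**Figure D5:**
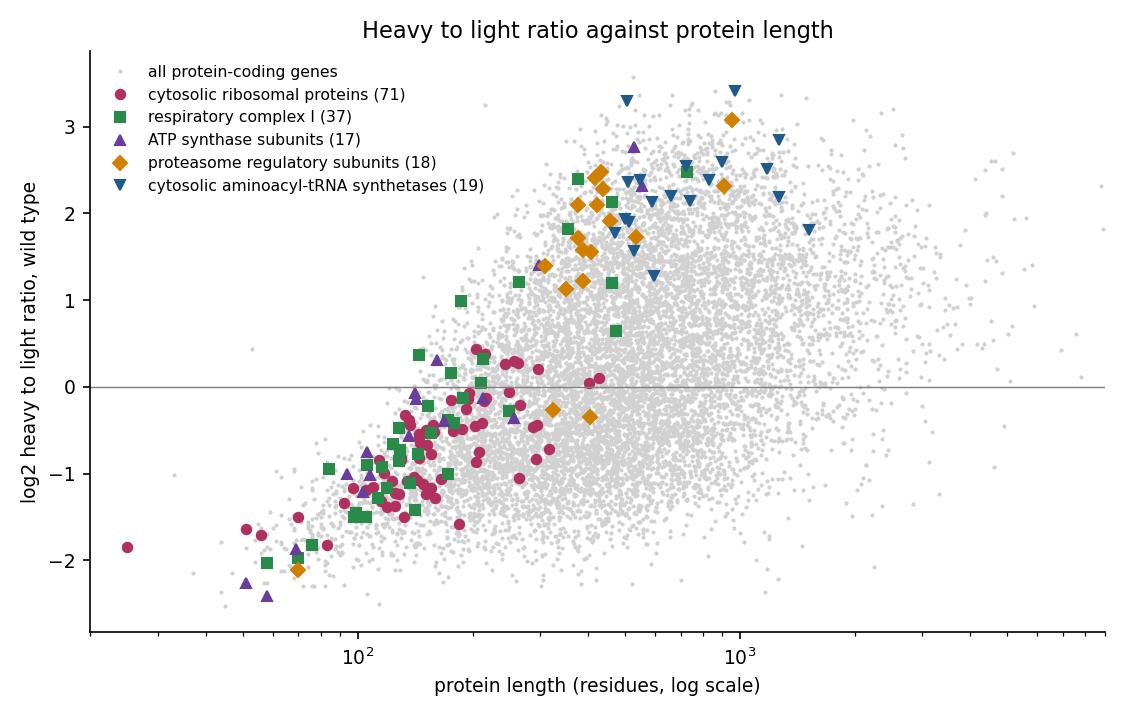
Wild type log2 heavy to light ratio (vertical axis) against protein length in residues (horizontal axis, log scale) for 10780 protein-coding genes (grey) and 5 lists (coloured, number of members with a length in brackets). Subunits of complex I climb from NDUFB1 at -2.03 to NDUFS1 at 2.48, and the 71 ribosomal proteins reach no higher than 0.43.

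Cholesterol and fatty acid synthesis had a median of 1.04 with 17 of 33 heavy-enriched. FASN, the fatty acid synthase of 2511 residues, had 13911 and 1799 counts (3.20), LSS, lanosterol synthase, stood at 2.83, and ELOVL6, an elongase, at -0.87. Peroxiredoxins, thioredoxins and related enzymes were even, with 4 of 21 in each direction. CAT, catalase, stood at 2.23, and the glutathione peroxidases GPX4 (-1.54) and GPX1 (-1.26) were light-enriched. Selenoproteins, whose selenocysteine is read from a UGA codon, had a median of -1.20 with 9 of 14 light-enriched and -0.63 relative to their length classes. TXNRD2 (2.24) and SELO (1.95) were the heavy-enriched ones. S100 proteins and metallothioneins had none of 13 heavy-enriched and 10 light-enriched.

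In the secretory pathway, the translocon, signal peptidase and oligosaccharyltransferase list had 9 of 33 heavy-enriched and 8 light-enriched. SRPR, the receptor of the signal recognition particle, stood at 2.70, and SEC61G, the gamma subunit of the translocon, at -2.21 (793 and 4348 counts). Coatomer and COPII coat proteins had 11 of 18 heavy-enriched and none light-enriched, from COPE (-0.26) to COPG1 (3.13). RAB and ARF GTPases, with a median of 204 residues, had 1 of 30 heavy-enriched, RAB8A (1.20, with 40% of exon length opposite another gene), and 10 light-enriched, RAB22A being lowest at -1.76. The V-ATPase, the proton pump of lysosomes, had 6 of 17 heavy-enriched and 5 light-enriched, from ATP6V0E1 (81 residues, -1.62) to ATP6V0D1 (2.84). Lysosomal hydrolases had 16 of 27 heavy-enriched, PSAP, the saposin precursor, leading at 2.70. Importins, exportins and nucleoporins had a median of 1.78 with 29 of 43 heavy-enriched. NUP93 stood at 2.75 and XPOT, the exportin of tRNAs, at -0.99.

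Cytoskeletal families showed paralogs of equal length with unequal ratios. Tubulins had a median of 2.09 with 10 of 12 heavy-enriched. TUBB4B had 25815 and 3769 counts (3.03) and TUBB had 32905 and 17828 (1.13), with proteins of 445 and 444 residues. ACTB had 110876 and 34907 counts (1.92) and ACTG1 had 104504 and 67674 (0.88), each encoding 375 residues, but in the labelled knockout gradient ACTB (0.98) was below ACTG1 (1.13). Small actin regulators with both actins included had 3 of 26 heavy-enriched and 6 light-enriched. Giant cytoskeletal and scaffold genes had 41 of 58 heavy-enriched and none light-enriched (median 1.53), FLNA, filamin A, reaching 2.90 and DNAH14, a dynein heavy chain, being lowest at -0.93.

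Epithelial keratins split as well. KRT8 had 56318 and 7114 counts (3.23), KRT18 stood at 2.62 and KRT19 at 2.59, whereas KRT10, of 584 residues, had 239 and 1166 (-2.04). Junction genes had 15 of 23 heavy-enriched and none light-enriched. JUP, plakoglobin, stood at 3.25 and CTNNA1, alpha-catenin, at 2.66. Integrins had 7 of 9 heavy-enriched, among them ITGA5 (2.12) and ITGB4 (2.10). ITGAE, of 1179 residues, had 117 and 597 counts (-2.10) and no upstream ATG.

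Genes of DNA replication had a median of 1.45 with 30 of 48 heavy-enriched. MCM7 had 14335 and 1870 counts (3.19) and MCM5 5085 and 734 (3.04), both helicase subunits, while POLE4 (-1.61), RPA3 (-1.38) and POLD4 (-1.25), small polymerase and single-strand binding subunits, were light-enriched. Mitotic genes had 27 of 43 heavy-enriched and 6 light-enriched. INCENP of the chromosomal passenger complex stood at 2.94, against -2.02 for CENPA, the centromeric histone, and -1.24 for BIRC5, which is INCENP's small partner survivin. Cyclins and CDK regulators had 9 of 44 in each direction, from CCNI (5 upstream ATG triplets, -1.89) to CCNB1 (2.38). Replacement histones had none of 10 heavy-enriched. Only 4 of 24 replication-dependent histone genes were measured, 2 of them light-enriched.

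Members of 2 signalling lists lay lighter than their length classes by median. Growth factor receptors and the RAS pathway had a median of -0.41, with 10 of 44 heavy-enriched and 8 light-enriched, and their median protein had 732 residues. Relative to their length classes they stood at -0.68, and 28 of 44 have an upstream ATG, against 48.3% of protein-coding genes of 701 to 1000 residues. NRAS had 675 counts in heavy and 3251 in light polysomes (-2.02), RHEB, the GTPase that activates mTOR, had 665 and 2533 (-1.68) and NF1, the RAS-inactivating neurofibromin of 2839 residues, had 115 and 349 (-1.35). MTOR itself stood at 2.18, TSC2 at 2.13 and EGFR at 1.60. The Wnt pathway had a median of -0.21, or -0.75 relative to length class, with 20 of 29 members carrying an upstream ATG. CTNNB1, beta-catenin, had 8357 and 1583 counts (2.65), and FZD3 (-1.38) and RNF43 (-1.28) were light-enriched.

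Of 28 measured mRNAs known for uORF control or stress induction, 12 were light-enriched and 4 heavy-enriched, at a median of -0.95, and 20 have an upstream ATG. SAT1, the polyamine acetyltransferase, had 17250 and 68271 counts (-1.74), DDIT3, the stress factor CHOP, had 529 and 1843 (-1.55) and CEBPG stood at -1.39. ASNS, asparagine synthetase, had 31388 and 4233 (3.14), and SLC3A2 (2.40), HSPA5 (2.28) and EPRS (1.80) were the other heavy-enriched members. Of these 4, only SLC3A2 has an upstream ATG in the annotation used. KLF and other immediate early factors had 8 of 37 heavy-enriched, KLF10 (1.64) and MCL1 (1.56) at the top and BTG1 (-1.66) at the bottom. The p53 pathway had 5 of 29 heavy-enriched, with the secreted cytokine GDF15 at 2.33, and 3 light-enriched, with ZMAT3 at -1.66.

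Interferon-stimulated genes had 18 of 32 heavy-enriched and none light-enriched, OAS3 leading at 2.68. Iron-responsive element mRNAs had 2 of 7 heavy-enriched, among them EPAS1 (1.92), with ferritin light chain FTL at -0.17. The microRNA and mRNA decay machinery had 14 of 36 heavy-enriched, led by the decapping scaffold EDC4 (2.53) and the pre-microRNA exporter XPO5 (2.15). Its light-enriched members were the deadenylases CNOT7 (1054 and 5105 counts, -2.03) and CNOT6 (-1.53), LSM1 (-1.44), AGO4 (-1.10) and the decapping enzyme DCP2 (-1.06). Of 125 measured zinc finger genes, 14 were heavy-enriched and 16 light-enriched. ZNF146 had 1404 and 6624 counts (-1.99) and 18 upstream ATG triplets, and ZNF296 had 431 and 105 (2.29) and none. Besides those already marked, at least 20% of exon length is shared with another gene for BBIP1, PDZD8, SRSF9, NHP2, MRPL33, PSMB10, USP31 and POLD4. The same holds for GPX1, RNF43, ASNS, DDIT3, LSM1, EDC4, H2AFY, PDIA3P1, LINC01011 and the markers CD68 and ACTA2. Reads of all these genes may include those of the neighbour.

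By CPM, which is not corrected for transcript length, the 10 highest rows were RNA45S5, GAPDH, EEF2, ACTG1, ENO1, HSP90AB1, ACTB, ALDOA, HMGA1 and PKM. GAPDH had 179950 counts in heavy and 48733 in light polysomes (2.13), and HSP90AB1, the cytosolic HSP90 beta, had 123814 and 23839 (2.63). EEF2, the translocase of elongation and a TOP mRNA, had 101302 and 76861 (0.65), below GAPDH, ENO1, ALDOA and PKM, and encodes 858 residues. In the labelled knockout gradient EEF2 (1.03) was above ALDOA (0.94). HMGA1, a chromatin protein of 107 residues, had 42808 and 90434 (-0.83). ALDOA stood at 1.59, with 42.8% of its exon length shared with another gene on the same strand.

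Some genes passed the minimum of 50 counts in only 1 wild type library. In heavy polysomes those with the most counts were NES, the intermediate filament nestin (422 against 49, a ratio of 3.36, interval 2.93 to 3.81), and CORO1A, an actin-binding coronin (388 against 44, 3.39). CAPN6 had 296 against 40 and ITGA7 281 against 45. In light polysomes they were LINC-PINT (49 against 237, -2.02), CKMT2-AS1 (46 against 235), NUDT16P1 (48 against 230), LINC01011 (43 against 221) and RGS17, a regulator of G protein signalling (49 against 213, -1.87).

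The labelled knockout gradient, from libraries that share none with the wild type pair, gave the same broad order on a narrower scale. Over 10834 genes measured in both, ratios had an SD of 1.18 in wild type cells against 0.91 under the knockout label, with interquartile ranges of 1.85 and 1.36. Of 2927 genes heavy-enriched in the wild type, 1887 were heavy-enriched in the labelled knockout (64.5% of the first and 90.9% of the 2076 of the second). Of 1899 light-enriched genes, 948 were shared (49.9% of the first and 79.8% of the 1188 of the second). No gene was enriched in opposite directions. Per gradient, 19% of 11084 genes were heavy-enriched and 10.8% light-enriched in the labelled knockout. USP5 had 4185 and 792 counts there (2.45 against 3.41), PDIA3 stood at 1.31 against 2.93 and FARSA at 1.84 against 3.29. Whether the narrower scale belongs to the genotype or to how that gradient was run and cut cannot be told apart.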

How the data were processed

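RNA from heavy and light polysomes of HCT116 cells was sequenced. The deposited table holds whole-number counts per gene symbol, not normalised as far as the values show. Per the submitters' processing notes, CASAVA, STAR, HTSeq and build hg19 were used. Which versions, annotation and strandedness applied is not given in the sources used here. No column was left without a sample.

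Counts were scaled to CPM with TMM factors over all 4 libraries (edgeR 4.0.16, R 4.3.3), 0.902 for wild type heavy and 1.14 for wild type light. Log2 heavy to light ratios carry exact binomial 95% intervals, conditional on the sum of both counts. Since the reads carry no molecular identifiers, intervals and floors cover counting error only. The interval code was tested on simulated data. GENCODE release 44 (GRCh38) matched 23035 symbols directly and 1379 through RefSeq synonyms, with 1950 left unmatched. Coding length, leader and upstream ATG come from the canonical transcript. Relative to length class means minus the median of the gene's length class.

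Named genes were the 10 highest and 10 lowest ratios at a mean CPM of at least 20, the 8 highest with at most 150 residues, the 8 lowest over 1000 residues, the 10 highest mean CPM, 6 at each end without a protein at a mean CPM of at least 5, 5 per side with 50 counts in 1 library only, list ends, and list members enriched against the run of a list. Some genes under this rule are not reported here. Members and lists were chosen with earlier results of these data known. Alternatives used library totals, DESeq2 1.42.0 size factors, TMM of the wild type pair, other count minimums, and no ribosomal RNA row. Ratios were computed in Python 3.11.15 (scipy 1.17.1, numpy 2.4.6, pandas 2.3.3).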

Additional observations from a re-analysis of the deposited data

Results flagged for a closer look

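Of 440 genes named or at the ends of lists and measured in both gradients, 22 lay on opposite sides of 0 in the wild type and the labelled knockout, 13 of them with both counting intervals off 0, and so did the medians of 10 of 61 lists. Given here are the 5 of those 13 genes with a log2 ratio of at least 0.3 either way in both gradients, and the 2 lists whose medians reached 0.15 in both. Each difference is between 2 pairs of single libraries and was not tested, and the gradient and the genotype cannot be told apart. Wild type values come first here. SSBP1 stood at 0.4507 and -0.3199. CST3 stood at 0.4363 and -0.7116, MRPL27 at 0.3816 and -0.4052, and NDUFA12 at 0.3736 and -0.5986. RPL14, a protein of the large ribosomal subunit, stood at 0.3764 and -0.3935. SSBP1, CST3, MRPL27 and NDUFA12 had been named for the highest wild type ratios among proteins of at most 150 residues. RPL14 had been named as one of the highest members of the ribosomal protein list. Their lengths (145 to 215 residues) and positive wild type ratios thus follow largely from how they were named. The median of the mitochondrial ribosomal proteins was 0.2211 against -0.3374. For growth factor receptors and the RAS pathway the sides were exchanged, with medians of -0.4146 and 0.1876. Under library totals, a setting added for both gradients after the data were seen, the mitochondrial ribosomal proteins stood on the same side, at -0.11 and -0.52, and the growth factor list stood at -0.75 and 0.00081, the latter close to 0. Under the same setting the 5 genes kept their signs, with wild type ratios of 0.039 (NDUFA12) to 0.12 (SSBP1).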

How the results depend on the processing

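No paired analysis was possible because each group has 1 library and the columns carry no replicate numbers. The light-enriched count was 1961, against 3124 with library totals alone and 3004 with no filter and a prior count of 2. The median of all genes was 0.07, against -0.26 with library totals, 0.15 with DESeq2 size factors, 0.14 with TMM of the wild type pair, -0.023 at a minimum of 10 counts, 0.15 at 200 and -0.18 with no filter. The length difference was 1.88 with no filter. Under library totals 15 genes and 7 list medians changed sign, and 8 of these genes had a counting interval off 0 in the main scaling. The 8 were EIF3K (-0.19), HNRNPDL (-0.14), IARS2 (-0.15), MAGOH (-0.15), RPL4 (-0.24), SDHC (-0.075), TCP1 (-0.23) and TUBD1 (-0.13). Among the lists, the elongation factor median became -0.055 and that of the mitochondrial ribosomal proteins -0.11. Under DESeq2 size factors 3 genes and 2 lists changed sign, of which H2AFY (0.00819) had an interval off 0. The share of heavy-enriched among enriched genes was 60.2%, from 40.5% with library totals to 65.3% with DESeq2 size factors. Leaving out the ribosomal RNA row moved none of the 445 genes or 61 list medians by more than its counting error or spread. At 200 counts, 392 of 445 genes and 60 of 61 lists had a value. Depth limits genes near 50 counts, and 1 library a side leaves the spread between cultures unmeasured.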

Other observations

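Ranked by their median relative to the length class rather than by the plain ratio, the gene lists kept much of the contrast, and upstream ATG triplets were spread unevenly over them. Tubulins stood highest at 1.95, with an upstream ATG in 1 of 12 members. Glycolytic enzymes followed at 1.86 (1 of 20), then TCA cycle enzymes at 1.66 (2 of 21), TRiC subunits at 1.66 (0 of 8) and cytosolic aminoacyl-tRNA synthetases at 1.66 (5 of 19). The core proteasome, at 0.81 in plain ratio, stood at 1.28 on this scale (0 of 16), and the mitochondrial ribosomal proteins at 0.81 (10 of 75). At the low end were the Wnt pathway at -0.75 (20 of 29), growth factor receptors and the RAS pathway at -0.68 (28 of 44), uORF-controlled and stress-response mRNAs at -0.65 (20 of 28), selenoproteins at -0.63 (2 of 14) and zinc finger genes at -0.49 (70 of 125). The uORF list was drawn up partly for such control, so its share with an upstream ATG was partly set by that choice. Giant cytoskeletal and scaffold genes, at 1.53 in plain ratio, stood at 0.37 (19 of 58). In the labelled knockout gradient the medians on this scale were 1.23 for tubulins, 1.28 for glycolytic enzymes, -0.44 for the Wnt pathway and -0.40 for growth factor receptors and the RAS pathway. Selenoproteins were the list near the low end with few upstream ATG triplets.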
